A study of Mus musculus with 13 samples.

Results

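Arpp21, Cnr1, Rgs14 and Nos1 are 4 genes that neurons of the striatum use in dopamine, cannabinoid, G protein and nitric oxide signalling, and their transcript levels were followed here in mice lacking the tyrosine phosphatase STEP. The members were all probe sets that carry 1 of these 4 symbols in the authors' table of selected probe sets. That gave 6 probe sets, 3 for Arpp21 and 1 each for Cnr1, Rgs14 and Nos1, of 4423 in the selected table and 45037 tested on the whole array. Probe sets outside the selected table have no gene name here, so further probe sets of the 4 genes were not analysed here.

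Striatum was taken from 13 naive male mice on the C57Bl/6J background, and total RNA was hybridised as biotinylated cRNA to 1 Affymetrix array per sample. The groups were wild-type littermates (WT, 4 arrays), heterozygous mice (STEP +/-, 5 arrays) and homozygous mice (STEP -/-, 4 arrays). STEP is encoded by Ptpn5. The labels and files do not state the age of the mice, how the allele was made, which array was used or a genome build. The tissue is bulk, and fewer cells of a type and less RNA per cell cannot be told apart.

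The headings of the selected table and the sample labels disagree. In all 4423 probe sets, the 4 columns headed wild type hold the intensities of the samples labelled homozygous, and the 4 columns headed homozygous hold those of the samples labelled wild type, within 1 intensity unit. The 5 heterozygous columns match their own labels. All groups below follow the sample labels, so homozygous and wild type run opposite to the headings of the selected table. By these labels the targeted gene was lowest in the homozygous arrays. Ptpn5 probe set 1425130_a_at had an intensity of 1649 ± 217 (SD, n = 4) in wild type, 1028 ± 231 (n = 5) in heterozygous and 485.7 ± 105 (n = 4) in homozygous arrays. Its homozygous minus wild-type difference was -1.75 ± 0.17 (SE) on the log2 scale (limma, adjusted p = 4.48e-06). Probe set 1423544_at gave -1.49 ± 0.15 (adjusted p = 5.31e-06). The authors' deposited table also gives Ptpn5 signed folds of -3.44 and -2.82 for homozygous against wild type. Whether these probe sets lie in the deleted part is not stated by the labels. Defining markers of striatal projection neurons could not be used to check the tissue label, because 0 of 18 are in the selected table. Of the markers of other cells, 2 of 9 astrocyte, 1 of 9 microglia, 0 of 11 oligodendrocyte, 0 of 6 choroid plexus and ependyma and 2 of 15 other interneuron genes are listed, and none of these passed the adjusted threshold.

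As background, medium spiny projection neurons receive dopamine from the midbrain and glutamate from the cortex, and cAMP and protein kinase A carry much of the dopamine signal. ARPP-21, the product of Arpp21, is a substrate of protein kinase A that is abundant in these neurons; its phosphorylated form binds calmodulin, and the protein also binds RNA. Cnr1 encodes the CB1 cannabinoid receptor, a presynaptic receptor coupled to inhibitory G proteins that lowers transmitter release when it meets endocannabinoids. Rgs14 encodes a scaffold that speeds the inactivation of inhibitory G protein alpha subunits and binds Ras and Rap proteins, and it is best known from hippocampal area CA2, where it limits synaptic plasticity. Nos1 encodes neuronal nitric oxide synthase, which in the striatum is concentrated in sparse interneurons that also make somatostatin and neuropeptide Y. STEP dephosphorylates glutamate receptor subunits and MAP kinases in striatal neurons.

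The Arpp21 gene also hosts a microRNA, miR-128-2, which is abundant in brain. Its mature strands are shown because Arpp21 is the member with the most probe sets and its host transcript is what these arrays read. The sequences are those of RefSeq for GRCm38.p6, read on the minus strand at chr9:112118644-112118664 for the 3p strand and chr9:112118679-112118701 for the 5p strand, both within the Arpp21 gene; capitals mark the seed, bases 2 to 8.
mmu-miR-128-3p: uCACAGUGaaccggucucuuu
mmu-miR-128-2-5p: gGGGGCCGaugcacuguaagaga
The levels of these mature strands were not analysed here. The Arpp21 values below are those of the 3 host-gene probe sets alone.

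Arpp21 was brightest in heterozygous arrays in all 3 probe sets, and the homozygous means lay between the heterozygous and wild-type means. In heterozygous minus wild type 0 of the 3 passed the adjusted threshold of 0.05, as did 0.00222% of all 45037 probe sets. Probe set 1419028_at had intensities of 1924, 2417, 2041 and 2089 in wild-type arrays 1 to 4. Its heterozygous arrays 1 to 5 had 3014, 2594, 2916, 2340 and 3224. The homozygous arrays had 2116, 2578, 2200 and 2584. Of the 5 heterozygous arrays, 4 lay above every wild-type array, and heterozygous array 4 lay inside the wild-type range, so the groups overlapped.

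The group means of 1419028_at were 2118 ± 211 (SD, n = 4) in wild type, 2818 ± 351 (n = 5) in heterozygous and 2369 ± 247 (n = 4) in homozygous arrays. On the log2(intensity + 16) scale, the heterozygous minus wild-type difference was 0.41 ± 0.11 (SE; limma, p = 0.0016, adjusted p = 0.289; exact two-sided permutation p = 0.0238). The homozygous minus heterozygous difference was -0.25 ± 0.11 (limma, p = 0.0416, adjusted p = 1.0; exact permutation p = 0.0635). The homozygous minus wild-type difference was 0.16 ± 0.12, with a 95% interval from -0.09 to 0.41 (limma, adjusted p = 0.908). Arpp21 entered the authors' table through the heterozygous comparison, so that contrast was used in its selection and its size describes the probe sets rather than testing them. The authors' deposited table gives heterozygous folds of 1.33, 1.39 and 1.40 for 1419028_at, 1442121_at and 1440429_at, each with an adjusted p of 0.362 or 0.361.

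The other Arpp21 probe sets had the same order of group means. Probe set 1442121_at had 918, 1073, 803 and 1086 in wild-type arrays, 1336, 1276, 1398, 1031 and 1763 in heterozygous arrays and 1052, 1208, 977 and 1009 in homozygous arrays. Probe set 1440429_at had 227, 265, 207 and 276 in wild-type arrays, 391, 318, 343, 247 and 420 in heterozygous arrays and 245, 306, 255 and 249 in homozygous arrays. Heterozygous array 5 was the highest and heterozygous array 4 the lowest of its group in each of the 3 probe sets. The heterozygous minus wild-type difference was 0.47 ± 0.14 for 1442121_at and 0.46 ± 0.14 for 1440429_at (limma, adjusted p = 0.306 and 0.313). Their homozygous minus wild-type differences, which the selection did not use but which share its wild-type arrays, were 0.13 ± 0.14 and 0.11 ± 0.15 (limma, adjusted p = 0.908 for each). Across the 13 arrays the log2 values of the 3 probe sets had Pearson r of 0.88, 0.90 and 0.96 with one another. These values describe 3 readings of the same RNA, not 3 independent measurements.

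**Figure D1:**
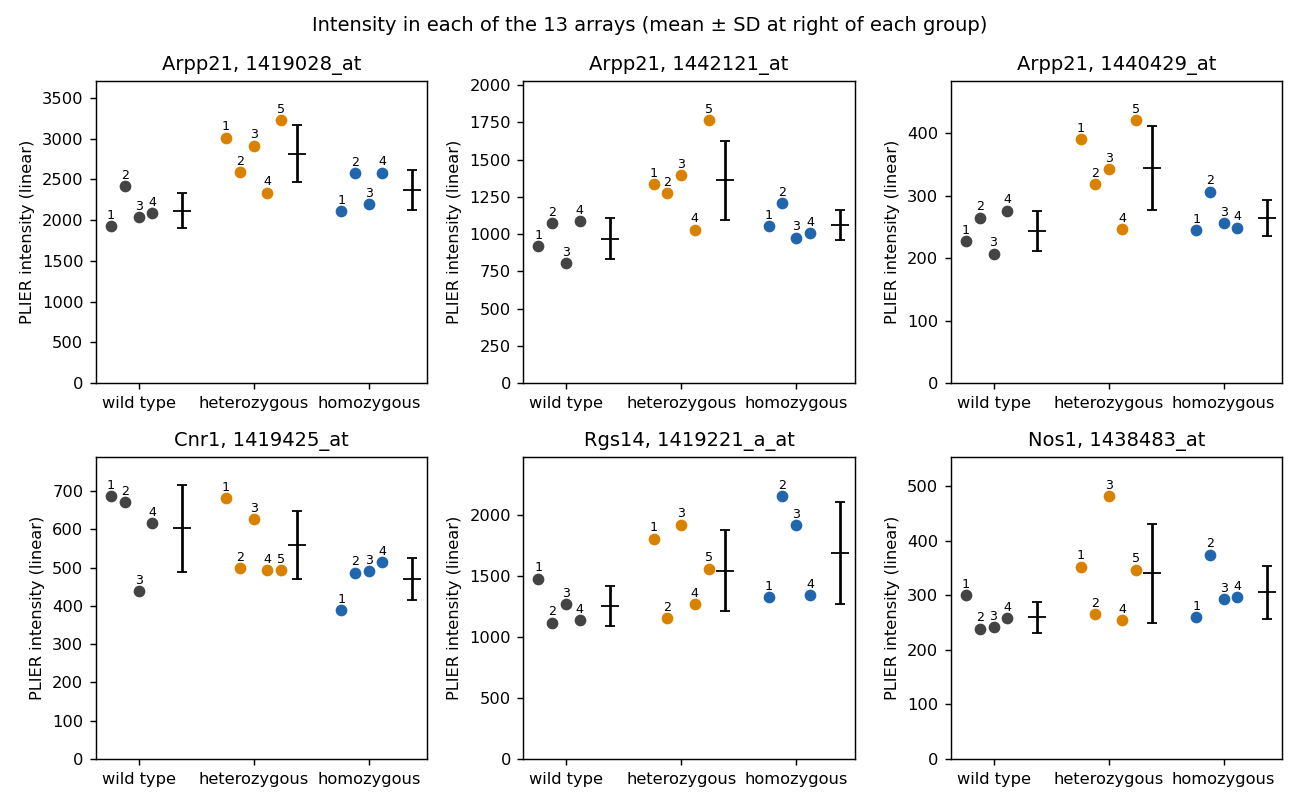
PLIER intensity on a linear axis (y) of the 6 probe sets in each array, grouped by genotype (x); numbers beside points are the replicate numbers of the labels, and the bar at the right of each group is the mean ± SD (n = 4 wild type, 5 heterozygous, 4 homozygous). In the 3 Arpp21 panels, 4 of 5 heterozygous points lie above all wild-type points, while in every panel the groups overlap.

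With intensities as deposited, markers of cortical excitatory neurons followed Arpp21 in some arrays and not in others. Of 18 such genes, 12 are in the selected table, and none of the 12 was at 0 in any array. Their summed intensity ranged from 4950 to 11987 in wild type, 10376 to 23550 in heterozygous and 5874 to 11599 in homozygous arrays. The highest sum, 23550, was in heterozygous array 5, which also had the highest Arpp21. The lowest heterozygous sum, 10376, was in array 4, which had the lowest heterozygous Arpp21. Among homozygous arrays, array 2 had an Arpp21 1419028_at intensity of 2578 with a marker sum of 7229. Homozygous array 1 had a lower Arpp21, 2116, with a higher sum, 10808. Between heterozygous and wild-type arrays all 12 markers had higher means, 11 of them with an unadjusted p under 0.05, and their median difference was 0.98 on the log2 scale. Over the whole array, 10.8% of probe sets were higher at that level. Of all probe sets in the selected table, 98.1% had higher means in this comparison, with a median difference of 0.31. The authors listed them, these 12 included, for differences in the same arrays. In homozygous minus wild type 7 of the 12 had higher means and 5 lower, where 94.9% of the selected table was higher. Slc17a7, the vesicular glutamate transporter of cortical neurons, named here after its values were seen, had means of 539 in wild type, 1389 in heterozygous and 604 in homozygous arrays. ARPP-21 is also made in the cortex, and the part of these markers in the Arpp21 values was not tested.

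**Figure D2:**
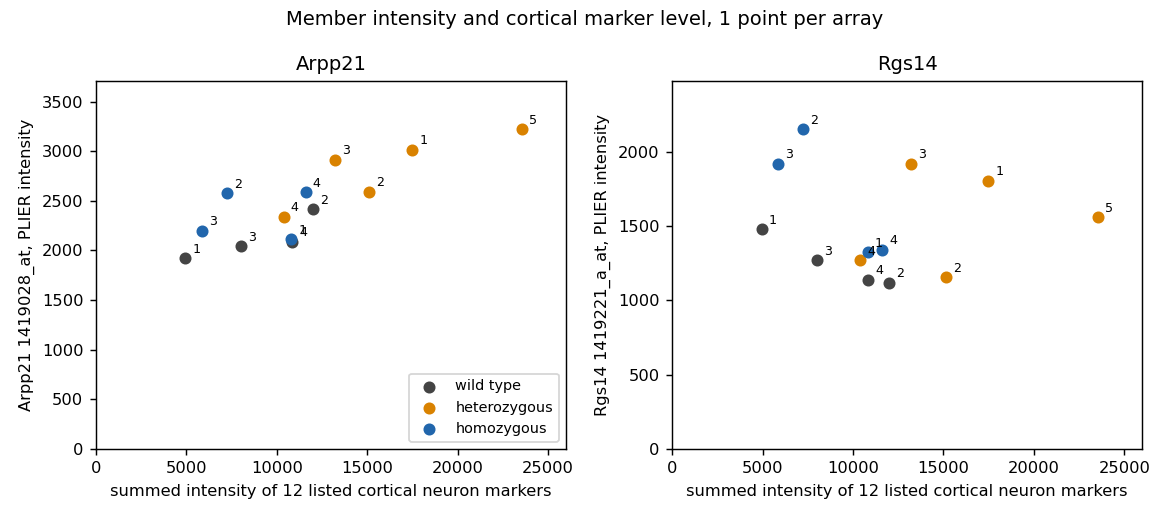
Summed intensity of the 12 cortical neuron markers in the selected table (x) against the intensity of Arpp21 1419028_at (left, y) and Rgs14 1419221_a_at (right, y), 1 point per array with its replicate number, coloured by genotype. Heterozygous array 5 has the highest marker sum and the highest Arpp21, while the highest Rgs14, homozygous array 2, has a marker sum of 7229.

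The genes whose values were most like those of Arpp21 1419028_at were Lrrc57 (r = 0.98), 1700020I14Rik, Ypel3, Nlk and Ppme1 (r = 0.97 each) over 13 arrays. The median r over all 2091 candidate genes was 0.82, so a high correlation with Arpp21 was common in this selected table. With each array centred on its median, a setting added after seeing the data, the closest were Slc30a3, 1700020I14Rik, Rras2, Mef2c and Gpr22 (r = 0.96 each; median over all candidates 0.74). Slc30a3, a zinc transporter of synaptic vesicles, and Mef2c, a transcription factor of cortical neurons, are among the 12 cortical markers. Slc17a7, another of the 12, had r = 0.72 with Arpp21, below the median of 0.82, and 0.89 after centring, above 0.74. Of 30 genes of dopamine and cAMP signalling in projection neurons, 2 are in the selected table. Prkar1b, a regulatory subunit of protein kinase A, and Ensa, a relative of ARPP-19, were higher in heterozygous than wild-type arrays by 0.37 and 0.40 (limma, unadjusted p = 0.0045 and 0.0047), with neither past the adjusted threshold. The authors listed both through that comparison, so nothing is read from these p-values. There 10.8% of all probe sets were higher with an unadjusted p under 0.05, and 98.1% of the selected table had higher means.

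Cnr1 had its lowest mean in homozygous arrays and its highest in wild type. Probe set 1419425_at had intensities of 687, 671, 439 and 616 in wild-type arrays. The heterozygous arrays had 681, 500, 627, 494 and 493, and the homozygous arrays had 389, 487, 491 and 515. Wild-type array 3, at 439, lay among the homozygous values, so those groups overlapped, and homozygous array 1 was the lowest of the 13.

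Mean Cnr1 intensity was 603 ± 114 (SD, n = 4) in wild type, 559 ± 89.0 (n = 5) in heterozygous and 470.5 ± 55.4 (n = 4) in homozygous arrays. The homozygous minus wild-type difference was -0.34 ± 0.15 on the log2 scale, with a 95% interval from -0.64 to -0.03 (limma, p = 0.0344, adjusted p = 0.908; exact permutation p = 0.114, where the smallest possible is 0.0286). That contrast placed Cnr1 in the authors' deposited table, with a fold of -1.27 and an adjusted p of 0.890. The other contrasts share arrays with it. In the contrasts that its selection did not use, heterozygous minus wild type was -0.10 ± 0.14 (95% interval from -0.39 to 0.19; limma, adjusted p = 0.769) and homozygous minus heterozygous was -0.24 ± 0.14 (95% interval from -0.53 to 0.06; limma, adjusted p = 1.0). With each array centred on its median, the homozygous minus wild-type difference was -0.43 (unadjusted p = 0.0013, adjusted p = 0.999).

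The log2 values of Cnr1 were most like those of Me2 and Cited4 (r = 0.85 each), Klhl1 (0.80), Ccdc123 (0.78) and Tpbg (0.76) over 13 arrays, where the median over 2091 genes was 0.12. Ptpn5 itself had r = 0.70 with Cnr1, and 0.75 after centring, which placed it among the 5 closest genes. The median over all candidates after centring was -0.22. Both genes had lower means in homozygous than wild-type arrays, the contrast that listed Cnr1. In that contrast 94.9% of the selected table had higher means, so nothing is read from the r of Ptpn5. Cnr1 had r of 0.15, 0.05 and 0.27 with Arpp21, Rgs14 and Nos1.

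Of 17 genes of endocannabinoid signalling, 6 are in the selected table, and all 6 had higher means in heterozygous than wild-type arrays, with a median difference of 0.40 and 6 with an unadjusted p under 0.05. The whole-array median difference was 0.12, with 10.8% of probe sets higher at that level, while the selected table had a median of 0.31 with 98.1% higher. In homozygous minus wild type all 6 had higher means, 1 of them (Ptgs2, the inducible cyclooxygenase) with an unadjusted p under 0.05, and their median difference was 0.16, or 0.07 after centring, where 94.9% of the selected table was higher with a median of 0.19. Between homozygous and heterozygous arrays 5 of the 6 were lower, 2 of them with an unadjusted p under 0.05, where 2.04% of all probe sets were lower at that level and only 16.1% of the selected table was higher. Those 2 were Faah, the hydrolase that degrades anandamide, at -0.35 (limma, unadjusted p = 0.0434), and Cnrip1, a protein that binds the tail of CB1, at -0.34 (limma, unadjusted p = 0.0316). None of the 6 was past the adjusted threshold in any of the 3 comparisons. The 6 were listed by the authors for a difference in these same arrays, so their counts are not independent evidence of a direction.

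Rgs14 had its highest mean in homozygous arrays and its lowest in wild type. Probe set 1419221_a_at had intensities of 1478, 1117, 1269 and 1139 in wild-type arrays. The heterozygous arrays had 1806, 1156, 1920, 1268 and 1559, and the homozygous arrays had 1323, 2153, 1918 and 1340. The homozygous values fell into a high pair, arrays 2 and 3, and a low pair, arrays 1 and 4, that lay inside the wild-type range. Homozygous array 2 was the highest of the 13. With each array centred on its median, the homozygous values were 1537, 1834, 1889 and 1301, and array 3 was the highest of the 13. Homozygous array 1 then lay above the highest wild-type value, 1516.

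Mean Rgs14 intensity was 1251 ± 165 (SD, n = 4) in wild type, 1542 ± 330 (n = 5) in heterozygous and 1683 ± 418 (n = 4) in homozygous arrays. The homozygous minus wild-type difference, through which Rgs14 was listed, was 0.40 ± 0.17 on the log2 scale (limma, p = 0.0255, adjusted p = 0.908; exact permutation p = 0.114). In the authors' deposited table the fold is 1.32 with an adjusted p of 0.890. The other contrasts share arrays with the one that listed Rgs14. The unused contrasts were 0.28 ± 0.16 for heterozygous minus wild type (95% interval from -0.05 to 0.61; limma, adjusted p = 0.485) and 0.12 ± 0.16 for homozygous minus heterozygous (95% interval from -0.21 to 0.45; limma, adjusted p = 1.0). Without homozygous array 2 the last of these was -0.0087.

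Summed markers of other regions reached their highest single value in a homozygous array, but not always their highest median. Of 10 hippocampal and CA2 markers, 3 are in the selected table (Cacng5, Wfs1 and Spink8), none at 0 in any array, and their summed intensity ranged from 1783 to 3073 in wild type, 1931 to 4334 in heterozygous and 2616 to 5716 in homozygous arrays. The highest sum, 5716, was in homozygous array 2, which had the highest Rgs14 as deposited. Homozygous array 4 had the next highest, 4545, with Rgs14 inside the wild-type range, and array 3, with high Rgs14, had 3655, so the order of the homozygous arrays was not the same for Rgs14 and these markers. Of 10 markers of septum, pallidum and hypothalamus, 5 are listed, none at 0. Their sums ranged from 1660 to 2218, 1749 to 3266 and 2192 to 3418 in the same order of groups. The median sums were 1964, 2823 and 2560, highest in heterozygous arrays. In homozygous minus heterozygous 3 of these 5 were higher. The 2 lower were Lhx2 (means of 836 in heterozygous and 686 in homozygous arrays) and Trpc4 (100 and 87). Wfs1, which is also expressed within the striatum, makes up most of the hippocampal sum, with means of 2096, 2584 and 3626. The vascular marker Tagln, the only one of 8 listed, ranged from 156 to 253, 202 to 305 and 310 to 635. The part of these markers in the Rgs14 values was not tested.

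The genes most like Rgs14 over the 13 arrays were 2010204K13Rik, Cinp and Neurl1a (r = 0.93 each), then Nrarp and 2610002J02Rik (r = 0.91 each), beside a median of 0.54 over 2091 genes. Of 22 other regulators of G protein signalling and inhibitory G protein genes, 7 are in the selected table. All 7 had higher means in both mutant groups than in wild type, 5 with an unadjusted p under 0.05 in heterozygous and 3 in homozygous arrays. Over the whole array 10.8% and 2.82% of probe sets were higher with an unadjusted p under 0.05 in these comparisons, and 98.1% and 94.9% of the selected table had higher means, so 7 of 7 is near the share of that table as a whole. In homozygous minus heterozygous arrays the smallest p-values were those of Gnai1, an inhibitory G protein alpha subunit, at -0.14 (limma, unadjusted p = 0.175), and Gpsm2, which binds such subunits in their inactive form, at -0.13 (limma, unadjusted p = 0.260). None of the 7 was past the adjusted threshold.

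Mean Nos1 intensity was higher in both mutant groups than in wild type. Probe set 1438483_at had intensities of 301, 239, 242 and 258 in wild-type arrays. The heterozygous arrays had 353, 266, 482, 254 and 347, and the homozygous arrays had 260, 375, 293 and 297. Heterozygous array 3 was the highest of the 13, and 3 of 5 heterozygous arrays but only 1 of 4 homozygous arrays exceeded every wild-type array.

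Mean Nos1 intensity was 260.0 ± 28.4 (SD, n = 4) in wild type, 340.5 ± 91.1 (n = 5) in heterozygous and 305.9 ± 48.7 (n = 4) in homozygous arrays. The heterozygous minus wild-type difference, through which Nos1 was listed, was 0.34 ± 0.15 on the log2 scale (limma, p = 0.0371, adjusted p = 0.441; exact permutation p = 0.111). The authors' deposited table gives a fold of 1.28 and an adjusted p of 0.433. Homozygous minus wild type was 0.22 ± 0.16 (95% interval from -0.12 to 0.55; limma, adjusted p = 0.908), and homozygous minus heterozygous was -0.12 ± 0.15 (95% interval from -0.44 to 0.19; limma, adjusted p = 1.0). Without heterozygous array 3 the last was 0.0063.

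Nos1 values were most like those of Mical3 and Pak6 (r = 0.97 each), Crtc1 and Rprd2 (r = 0.96 each) and Ubqln4 (r = 0.95), beside a median of 0.72. Among the members, Nos1 had r = 0.82 with Rgs14 and 0.65 with Arpp21. After centring these were 0.65 and 0.34, and the median over all candidates also fell, to 0.42. The r with Rgs14 lay above the median on both scales, and the r with Arpp21 below it.

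Of 8 markers of the interneurons that make nitric oxide, 4 are in the selected table, and all 4 had higher means in heterozygous than wild-type arrays, 3 with an unadjusted p under 0.05 and none past the adjusted threshold, beside 10.8% of all probe sets higher at that level and 98.1% of the selected table with higher means. Sst, which encodes somatostatin, had means of 2866, 3759 and 3130 in wild-type, heterozygous and homozygous arrays. Npy, which encodes neuropeptide Y, had 2707, 3351 and 2552. In homozygous minus heterozygous 3 of the 4 were lower, where only 16.1% of the selected table was higher. Among them were Npy at -0.39 (limma, unadjusted p = 0.0012) and Sst at -0.26 (limma, unadjusted p = 0.0253). Npy2r, a receptor for neuropeptide Y, was much dimmer than Sst and Npy and had another order, with means of 66.1, 75.2 and 125. Its homozygous minus heterozygous difference was 0.62 (limma, unadjusted p = 0.0138). None of the 4 passed the adjusted threshold there. These genes were named after their values were seen. Both peptides are also made by cortical interneurons, and whether the cortical marker level took part was not tested.

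Of 21 other genes of nitric oxide and cGMP signalling, 6 are in the selected table. All 6 had higher means in heterozygous than wild-type arrays, 4 with an unadjusted p under 0.05, and 5 had higher means in homozygous arrays, 4 with an unadjusted p under 0.05. Over the whole array 10.8% and 2.82% were higher at that level, and 98.1% and 94.9% of the selected table had higher means. Nos1ap, an adaptor that binds neuronal nitric oxide synthase, had means of 1466, 1804 and 1290, and its homozygous minus heterozygous difference was -0.48 (limma, unadjusted p = 0.00024, adjusted p = 0.621). Pde9a, a phosphodiesterase that degrades cGMP, had means of 272, 330 and 400, and its homozygous minus heterozygous difference was 0.26 (limma, unadjusted p = 0.0856).

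**Figure D3:**
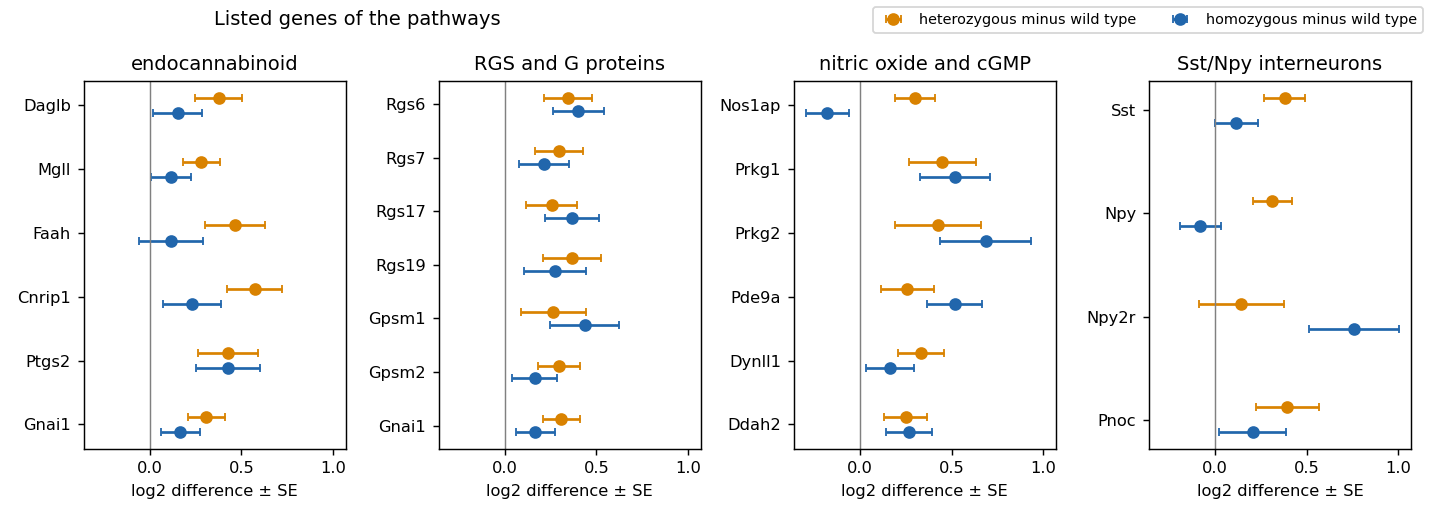
Log2 difference ± SE (x) from wild type of the listed genes of 4 lists (y), for heterozygous (orange) and homozygous (blue) arrays. All 6 endocannabinoid genes and all 7 genes of the G protein list lie right of 0 in both comparisons, and none passed the adjusted threshold.

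Set beside the whole array, no member was called in any comparison. At an adjusted p under 0.05, 0 of 6 probe sets passed in heterozygous minus wild type, where 0.00222% of all probe sets did. In homozygous minus wild type 0 of 6 passed beside 0.00888%, and in homozygous minus heterozygous 0 of 6 passed beside 0.00666%. At an unadjusted limma p under 0.05, 4 of 6 passed in heterozygous minus wild type, all higher, where 10.8% of all probe sets were higher at that level. In homozygous minus wild type 2 passed, Rgs14 higher (2.82% of all) and Cnr1 lower (0.209% of all). In homozygous minus heterozygous the 3 Arpp21 probe sets passed, all lower (2.04% of all). The comparisons against wild type listed the members, so nothing is read from those counts, and homozygous minus heterozygous shares arrays with both. With limma array weights, which weigh each array by its spread, 5 of the 18 member differences passed the adjusted threshold. They were Rgs14 and Cnr1 in homozygous minus wild type, and Rgs14 and 2 Arpp21 probe sets in homozygous minus heterozygous. Of all 45037 probe sets, those weights called 8389 in homozygous minus wild type and 5708 in homozygous minus heterozygous, against 4 and 3 without them. By the exact permutation test 3 of 6, the Arpp21 probe sets, had p under 0.05 in heterozygous minus wild type and 0 in the other comparisons. Arpp21 was listed through that contrast, and the share of all probe sets by this test was not computed, so nothing is read from this count. Groups overlapped for all 6 probe sets in each comparison, so 0 of 6 stood apart. Of all probe sets, 6.55% were higher and 0.0622% lower without overlap in heterozygous minus wild type, 1.3% and 0.0733% in homozygous minus wild type, and 0.0888% and 0.386% in homozygous minus heterozygous.

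Whole arrays also differed in brightness. The median difference over all 45037 probe sets was 0.12 for heterozygous minus wild type, with 81.6% of them higher, 0.09 for homozygous minus wild type and -0.03 for homozygous minus heterozygous. Median array intensity ranged from 154 to 168 in wild type, 160 to 198 in heterozygous and 143 to 201 in homozygous arrays. After each array was centred on its median, heterozygous minus wild type was 0.29, 0.36 and 0.34 for the Arpp21 probe sets, 0.22 for Nos1 and 0.17 for Rgs14. At an unadjusted p under 0.05, 3 of 6 then passed, the 3 of Arpp21, beside 5.78% of all probe sets that were higher. All 18 differences of the members kept their direction under centring, and none passed the adjusted threshold, beside 0.00222%, 0.00888% and 0.00444% of all probe sets in heterozygous minus wild type, homozygous minus wild type and homozygous minus heterozygous.

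**Figure D4:**
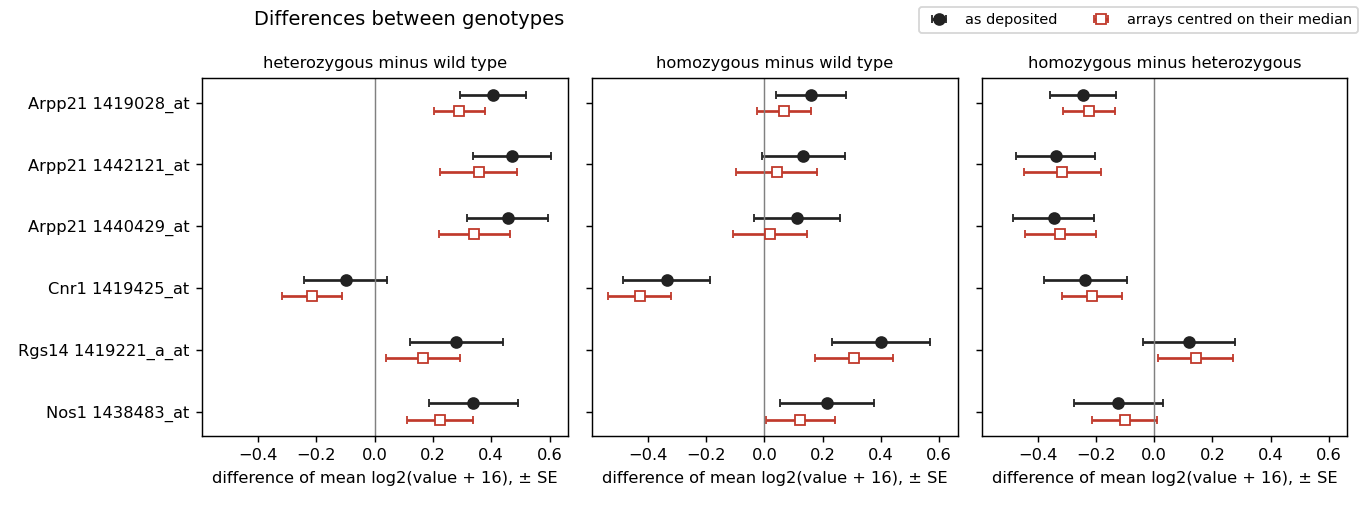
Difference of mean log2(value + 16) ± SE (x) of the 6 probe sets (y) in the 3 comparisons, with intensities as deposited (filled) and with each array centred on its median (open). The Arpp21 probe sets lie at 0.41 to 0.47 in heterozygous minus wild type and at -0.35 to -0.25 in homozygous minus heterozygous as deposited, and Cnr1 lies left of 0 in all 3 panels.

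The order of the genotype means was not the same for every member. It was wild type, homozygous, heterozygous from low to high for Arpp21 and Nos1, wild type, heterozygous, homozygous for Rgs14, and homozygous, heterozygous, wild type for Cnr1. No neighbours in these orders passed the adjusted threshold, and all neighbouring groups overlapped. Whether the order itself differs between members was not tested.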

How the data were processed

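The authors deposited PLIER intensities on a linear scale for the whole array, per the submitters' processing notes, and a selected table of the same intensities rounded, with their signed fold (used as a score), raw p-value and adjusted p-value per comparison, per the file headers. The selected table lists only probe sets with a raw p-value under 0.05 and a fold over 1.2 in at least 1 comparison; 3581 of its probe sets have 1 gene symbol, 793 none and 49 several. Samples were grouped by their labels, and the replicates are separate mice, per the file headers; the labels give no batch. Arrays carry no read depth, so the number of arrays sets the precision.

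Here log2(intensity + 16) of 45037 probe sets (64 controls left out) was fitted with limma 3.58.1 in R 4.3.3 (lmFit, eBayes with an intensity trend, 13 arrays, group as the only term, two-sided, Benjamini-Hochberg over all probe sets). The offset understates changes of dim genes. Two-sided exact permutation tests compared mean log2 values. The fit was tested on simulated data for homozygous minus wild type over 45037 probe sets: 30% of changes of 0.5 on the log2 scale and 96% of changes of 1.0 were recovered. The simulated noise was normal and independent between probe sets, and 200 probe sets were changed by 0.5 to 3.0. Whole real arrays differed in brightness, which the simulation left out, so these shares may not hold for them. A gene stands by its brightest listed probe set. For each member the 5 genes with the highest Pearson r were named, and in each pathway list the 2 with the smallest p in homozygous minus heterozygous. Outlying arrays were looked for with Dixon's test in 24 groups. The members and lists were chosen with earlier results of these data known. Intensity alternatives covered the offset, filter, normalization, block, weights, arrays and labels. Replicate numbers did not mark shared animals or batches in the labels.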

Additional observations from a re-analysis of the deposited data

How the results depend on the processing

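Over 22 alternatives that kept the labels, 388 of 396 values of the 18 member differences kept their direction and side of the adjusted threshold, and 5 newly passed it, all with limma array weights. With those weights, which ranged from 0.209 to 12.03 and were highest for homozygous array 3, Rgs14 passed in homozygous minus wild type (0.61, adjusted p = 0.0024) and homozygous minus heterozygous (0.52, 0.0044). Cnr1 passed in homozygous minus wild type (-0.30, 0.0297), and Arpp21 in homozygous minus heterozygous (-0.25, 0.0276; -0.36, 0.0175). Those weights called 8389 probe sets in homozygous minus wild type, 4 in heterozygous minus wild type and 5708 in homozygous minus heterozygous, against 4, 1 and 3 without them; the cause was not tested. The 3 reversals were Nos1 in homozygous minus heterozygous, at 0.031 with array weights and 0.0063 without heterozygous array 3, and Rgs14 there, at -0.0087 without homozygous array 2 (range over left-out arrays -0.0087 to 0.22, and -0.22 to 0.0063 for Nos1).

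Bright probe sets alone, 22519 of 45037, gave 2 calls in homozygous minus wild type. Fitting only the compared groups gave 18 there and 12 in homozygous minus heterozygous. Leaving out 1 array gave 3 to 12 calls in homozygous minus wild type (7 without heterozygous array 5 or homozygous array 1, 12 without homozygous array 4). It gave 1 to 213 in heterozygous minus wild type (213 without heterozygous array 4, 5 without homozygous array 3, 4 without wild-type array 4, 2 without heterozygous array 5 or homozygous array 4). It gave 0 to 7 in homozygous minus heterozygous (1 without heterozygous array 1, 7 without homozygous array 1). The 0 came from limma without homozygous array 4, where 1870 had an unadjusted p under 0.05. The smallest adjusted p of a member with an array left out was 0.0523, for Arpp21 1442121_at in heterozygous minus wild type without heterozygous array 4.

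Same-numbered arrays had deviations with r from -0.45 to 0.19 over 12 pairs, and 2 of 24 best matches were with the same number, so the numbers do not pair the samples. With the replicate block the counts were 17, 6 and 12, and no member call changed; Arpp21 1419028_at was 0.35 (adjusted p = 0.632) in heterozygous minus wild type.

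Exchanging the wild-type and homozygous labels, as the headings of the selected table do, gave 4, 3 and 1 calls over the array, and 4, 3 and 681 within the selected table. Homozygous minus wild type then turned sign, with -0.16, -0.13 and -0.11 for Arpp21, 0.34 for Cnr1, -0.40 for Rgs14, -0.22 for Nos1, and 1.75 and 1.49 for Ptpn5. Heterozygous minus wild type became 0.24 for Cnr1, -0.12 for Rgs14, and 1.05 and 0.97 for Ptpn5. Homozygous minus heterozygous became 0.10 for Cnr1, -0.28 for Rgs14, and 0.69 and 0.51 for Ptpn5. Within the selected table the 3 Arpp21 probe sets then had an adjusted p of 0.0495 in homozygous minus heterozygous, with p adjusted over probe sets the authors had selected on these arrays.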
